A study of Mus musculus with 4 samples.

Results

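Days 3 and 5 after muscle injury, the middle of a regeneration time course, were compared with days 2 and 14, its ends, to find genes that were high or low in mid-course and back by day 14. The cells were myogenic cells from injured hind-limb muscle of C57BL/6 mice, 8 to 12 weeks old, that had received cardiotoxin, a snake venom component that kills muscle fibres and so sets off their regrowth. All 4 groups share the strain, the age range, the toxin and the cell type, differ in the day, and hold 1 Affymetrix mouse 430A array each. The labels mention SM/C-2.6, an antibody to satellite cells, but no other marker of the purification, and say that the cells were not cultured. How many animals an array pools is not known here, and no uninjured sample was analysed here. The 2 days of a side are different time points and not replicates, so no difference has a replicate check. All 4 arrays of the series enter, as 2 middle days and 2 end days.

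Values are MAS5 signals in arbitrary units, scaled so that the arrays share a trimmed mean. Signals below a floor of 43.0, the pooled median of the scaled data, were raised to it before ratios were taken, and a gene above the floor on at least 1 array was measured (7930 of 12394 named genes). A gene was called a mid-course rise where the lower of its day 3 and day 5 signals was at least 2-fold the higher of its day 2 and day 14 signals, and a dip in the mirror case. This ratio between the nearest days of the 2 sides is called the gap. A gene above the floor on middle days alone could not come out lower there, and one above it on end days alone could not come out higher. The middle-minus-end difference is the mean log2 signal of days 3 and 5 minus that of days 2 and 14. By the gap, 26 genes were rises (0.328% of measured genes) and 1 gene was a dip (0.0126%). Of the 26 rises, 10 encode proteins of the sarcomere, and the dip was Cd34, a sialomucin found on quiescent satellite cells and on endothelial cells. By the sign alone, 769 genes (9.7%) lay higher on both middle days than on both end days and 529 (6.67%) lower. These counts moved with the scaling, to 570 and 563 with the values as deposited and to 683 and 578 with scaling by the median of ratios.

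Satellite cells are the stem cells of skeletal muscle. After injury they divide as myoblasts, switch on the transcription factor myogenin, leave the cell cycle and fuse into new fibres. New fibres first make embryonic and fetal forms of many contractile and synaptic proteins, which adult forms later replace. The MyoD family of transcription factors binds E-boxes, short DNA elements of the form CANNTG, in the promoters of many muscle genes, and MEF2 proteins bind an A- and T-rich element beside them.

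The promoters of 5 called rises are shown, picked from those with a large gap and an E-box of the form CAGCTG or CAGGTG. The promoters shown are the 250 bases before the RefSeq start site in assembly GRCm38.p6, written 5′ to 3′ on the strand of the gene. Where RefSeq gives several starts for a gene, the one with the lowest coordinate is shown. Capitals mark each match to either E-box and to the MEF2 site. On the opposite strand CAGGTG reads CACCTG.
Chrng (chr1:87205561-87205810, plus strand): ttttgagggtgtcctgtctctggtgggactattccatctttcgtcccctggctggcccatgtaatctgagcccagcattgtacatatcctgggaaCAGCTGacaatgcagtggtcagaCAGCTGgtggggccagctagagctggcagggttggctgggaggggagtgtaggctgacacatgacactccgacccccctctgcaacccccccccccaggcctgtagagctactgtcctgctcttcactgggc
Mylpf (chr7:127211358-127211607, plus strand): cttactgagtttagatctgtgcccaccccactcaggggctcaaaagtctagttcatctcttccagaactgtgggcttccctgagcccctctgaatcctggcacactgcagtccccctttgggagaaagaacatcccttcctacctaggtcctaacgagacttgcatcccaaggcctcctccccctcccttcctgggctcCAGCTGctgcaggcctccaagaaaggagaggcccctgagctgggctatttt
Tnni1 (chr1:135799171-135799420, plus strand): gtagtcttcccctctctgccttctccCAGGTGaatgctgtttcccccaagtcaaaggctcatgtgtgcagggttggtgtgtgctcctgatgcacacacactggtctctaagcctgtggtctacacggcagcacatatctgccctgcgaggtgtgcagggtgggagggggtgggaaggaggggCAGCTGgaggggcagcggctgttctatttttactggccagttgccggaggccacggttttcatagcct
Tnnt2 (chr1:135836084-135836333, plus strand): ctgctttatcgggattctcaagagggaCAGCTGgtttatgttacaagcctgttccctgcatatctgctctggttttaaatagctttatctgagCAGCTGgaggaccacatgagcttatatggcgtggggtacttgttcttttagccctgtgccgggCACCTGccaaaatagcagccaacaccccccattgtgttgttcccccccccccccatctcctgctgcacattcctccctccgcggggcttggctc
Ttn (chr2:76982548-76982797, minus strand): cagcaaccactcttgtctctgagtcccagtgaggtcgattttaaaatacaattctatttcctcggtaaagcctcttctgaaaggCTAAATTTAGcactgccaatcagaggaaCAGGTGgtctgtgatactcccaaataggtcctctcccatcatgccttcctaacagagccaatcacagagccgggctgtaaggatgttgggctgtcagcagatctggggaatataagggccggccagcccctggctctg

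Chrng held 2 matches to CAGCTG and Tnnt2 held 3 matches to CAGCTG or CAGGTG. Ttn held 1 such match and 1 MEF2 site. Other forms of CANNTG were not searched. RefSeq promoters of 300 bases (250 before the start and 50 after it) were found for 22 of the 26 rises, 37 promoters in all, and both strands were searched. Hpgd, Tnnt1, Dclk1 and Tnnc2 also had large gaps and an E-box but are not shown. Myh3 (gap 4.21-fold) and Tnnc1 (at least 3.43-fold) had neither E-box. CAGCTG or CAGGTG lay in 21 of the 37 promoters (56.8%), against 28.9% of the promoters of all measured genes and 32.9% of all promoters of that length. Counted by gene, it was 12 of 22 genes (54.5%) against 32.6% of measured genes. CAGCTG alone lay in 27.0% of the promoters of rises and in 14.8% of those of measured genes, and CAGGTG alone in 43.2% and 16.7%. The MEF2 site was found for 2 of the 22 genes (9.09%) and for 2.03% of measured genes. CCAAT was found in 48.6% of the promoters of rises and 37.4% of those of measured genes, and by gene in 50% and 43.2%. The TATA box TATAAA was found in 10.8% and 7.24% of these promoters, and by gene in 4 of 22 (18.2%) and 8.86%. These are counts of letters in a window, with no test, and 9 of the 37 promoters belong to Arpp21 alone.

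The cells carried the markers of myogenic cells on every day. Myf5, Myod1, Myog, Itga7, Cdh15, Vcam1 and Sdc4 were above the floor on all 4 arrays and Pax7 on 3. The share of probe sets above the floor grew with the day and not with the side, from 45.0% on day 2 to 49.5%, 52.0% and 53.5% on days 3, 5 and 14. The ratio of 3′ to 5′ signal of Gapdh, a measure of RNA integrity and amplification, was 1.88 and 2.87 on the middle days and 2.17 and 2.84 on the end days, so the sides overlapped. The same ratio of Actb was 2.20 and 2.19 on the middle days and 1.80 and 2.14 on the end days, so its sides did not overlap. Summed signals of 29 macrophage markers did not overlap, at 5610 and 6725 on the middle days and 4063 and 4678 on the end days. The sum did not stand for most of its genes. Of 23 measured macrophage markers, 1 lay higher on both middle days (4.35%, against 9.7% of all measured genes) and none lower. Of the 29, 5, 11, 22 and 20 were above the floor on days 2, 3, 5 and 14, so these counts overlapped. The defining macrophage markers Csf1r, Adgre1 and Ptprc each had overlapping sides. The part of the Actb ratio and of these markers in the results was not tested. The neutrophil, lymphocyte, red cell and fat cell markers S100a8, S100a9, Cd3e, Cd79a, Hba-a1, Alas2, Adipoq and Lep were under the floor on all 4 arrays. Of the whole lists on the array, 1 of 13 neutrophil genes was above the floor, Mmp9 on day 5, and 1 of 16 lymphocyte genes, Ighm, on all 4 days. Of 8 red cell genes, Tfrc, which dividing cells also make, was above the floor on all 4 days, and of 11 fat cell genes 4, 3, 5 and 6 were on days 2, 3, 5 and 14. In that order the summed signals were 116, 215, 332 and 216 for neutrophil genes and 117, 226, 215 and 217 for lymphocyte genes. They were 2115, 1378, 554 and 416 for red cell genes and 1246, 1415, 1333 and 3658 for fat cell genes. The sides overlapped in each of these 4 sums. Fibroblast genes (25 on the array) summed to 2427, 5941, 22904 and 29239 and Schwann cell genes (12 on the array) to 440, 991, 3000 and 6019. Both sums grew with the day, and their sides overlapped. The fibroblast marker Pdgfra was above the floor on days 5 and 14, at 105 and 104, and Pi16 on day 14 alone. Clec3b was below it on all 4 arrays, and the Schwann cell marker Sox10 was above it on day 3 alone, at 46.3.

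**Figure D1:**
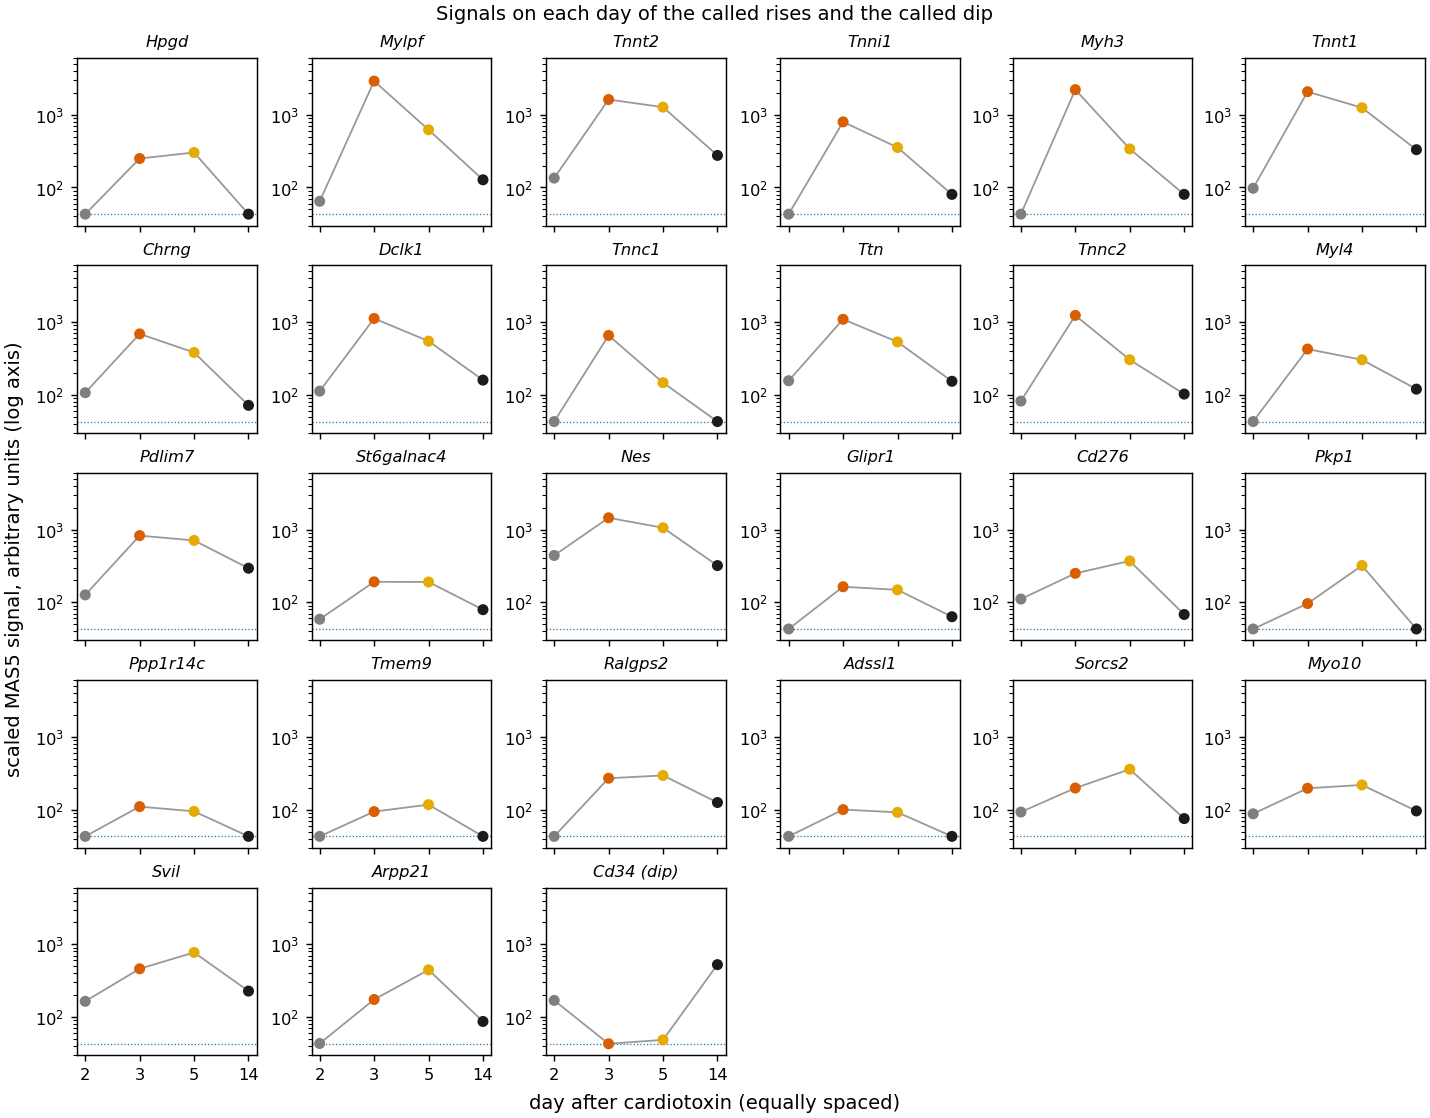
Scaled MAS5 signal in arbitrary units (log axis) of each of the 26 called rises and of the called dip, Cd34, on days 2, 3, 5 and 14, with 1 array a day and days equally spaced. The dotted line is the floor of 43.0, and points under it are drawn on it. In each rise both middle days stand at least 2-fold above both end days, and 17 of the 26 are higher on day 3 than on day 5.

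The sarcomere, the contractile unit of striated muscle, supplied the largest group of rises. Of 45 measured genes of the sarcomere and contraction list, 10 were called rises (22.2%, against 0.328% of all measured genes) and none a dip. A further 15 lay higher on both middle days without reaching 2-fold, which makes 25 of 45 (55.6%) against 9.7% of all measured genes, and none lay lower on both. The median middle-minus-end difference of the list was 1.02 on the log2 scale, against 0.01 over all measured genes. The list was drawn up with earlier results of these data known.

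The troponins form the calcium switch of the thin filament. Of 8 troponin genes on the array 7 were measured, all 7 were higher on both middle days than on both end days, and 5 were called. Of these, Tnnc1 was measured through its middle days alone, so its direction was fixed by the floor. Tnnt2, the cardiac troponin T that developing skeletal muscle also makes, read 135, 1617, 1270 and 276 on days 2, 3, 5 and 14, a gap of 4.61-fold. Its middle days lay close together and its second probe set was called too. Tnnt1, the slow troponin T, read 97.5, 2071, 1246 and 331, a gap of 3.77-fold. Tnni1, the slow inhibitory subunit, was below the floor on day 2 and read 797, 355 and 80.3 on the later days, a gap of 4.42-fold. Both slow subunits were thus highest on day 3 and still above their day 2 signal on day 14. Tnnc1, the calcium-binding subunit of slow and cardiac muscle, read 655 on day 3 and 147 on day 5 and was below the floor on both end days, a gap of at least 3.43-fold. Tnnc2, its fast counterpart, read 82.1, 1237, 304 and 103, a gap of 2.96-fold. The fast subunits Tnnt3 and Tnni2 had the same order of sides but fell short of 2-fold. Tnnt3 read 48.4, 516, 113 and 60.8 (gap 0.90 on the log2 scale). Tnni2 read 91.8, 743 and 105 on days 2, 3 and 5 and was below the floor on day 14, and its gap of 0.19 was small because day 5 nearly met day 2.

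Among the myosins, the embryonic heavy chain and a pair of light chains were called. Myh3, the embryonic myosin heavy chain, was below the floor on day 2 and read 2210 on day 3, 339 on day 5 and 80.4 on day 14, a gap of 4.21-fold. Mylpf, the regulatory light chain of fast muscle, read 64.5, 2896, 620 and 127, a gap of 4.87-fold. Both were sharply highest on day 3. Day 5 over day 3 was 0.15 in Myh3 and 0.21 in Mylpf. Among the measured troponins it was 0.14 in Tnni2 and ran from 0.22 in Tnnt3 to 0.79 in Tnnt2. Myl4, the light chain of embryonic muscle and atrium, was below the floor on day 2 and read 426, 303 and 120 afterwards, a gap of 2.53-fold. Its second measured probe set had a middle-minus-end difference of only 0.03, so the call rests on 1 of its probe sets. Myh1, an adult fast heavy chain, was below the floor on day 2 and read 390, 62.3 and 235 on days 3, 5 and 14. It was higher on day 14 than on day 5, so its sides overlapped, unlike those of Myh3. Of 7 myosin heavy chain genes on the array, Myh3 and Myh1 alone were measured.

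Titin, the spring that spans the sarcomere, showed the most even return. Ttn read 156, 1093, 534 and 154, a gap of 3.41-fold, and both of its measured probe sets were called. Its end days were nearly equal. Pdlim7, a PDZ and LIM protein bound to actin filaments, read 126, 824, 708 and 294, a gap of 2.41-fold, but its second probe set had a middle-minus-end difference of 0.29.

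The sarcomeric actins lay outside the threshold because they stayed high on day 14. Acta1, skeletal alpha-actin, read 114, 3858, 1318 and 679. Its middle-minus-end difference of 3.02 was among the largest of the list, but day 14 was within 1.94-fold of day 5. Actc1, cardiac alpha-actin, which developing skeletal muscle makes too, read 56.4, 2251, 2227 and 1497, with a difference of 2.95 and a gap of 0.57 on the log2 scale. Neither pair of sides overlapped. Counting a gene where the sides do not overlap and the means differ by at least 2-fold (110 rises, 1.39% of measured genes, and 25 dips, 0.315%) took in both actins and 22 of the 45 genes of the list. Not every member had a mid-course maximum. Fhl1, Pygm and Tpm3 had middle-minus-end differences between -0.23 and -0.18. Fhl1 was highest on day 14 at 1426, and Pygm, the muscle glycogen phosphorylase, was highest on day 14 at 145.

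**Figure D2:**
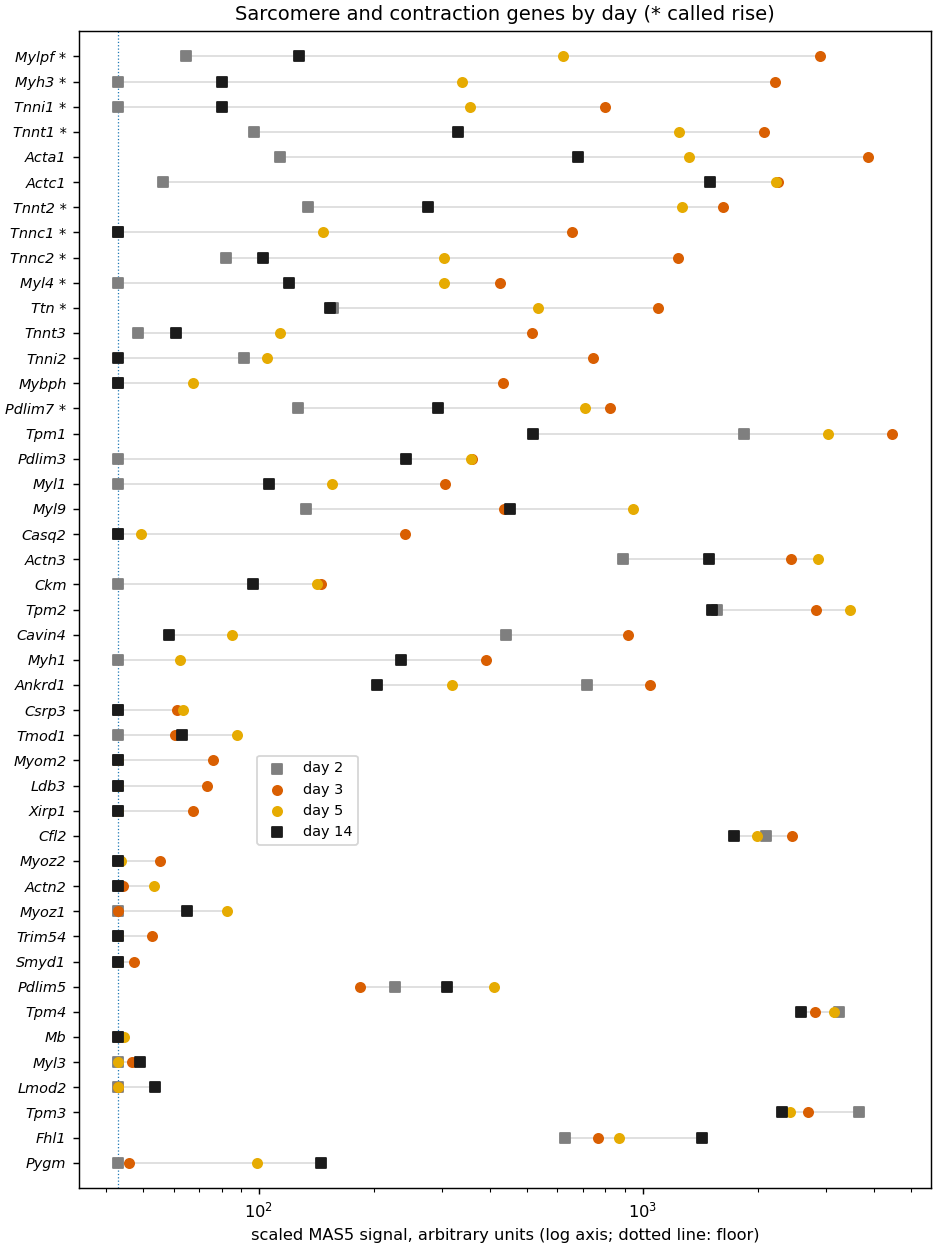
Scaled MAS5 signal in arbitrary units (log axis) of each measured gene of the sarcomere and contraction list on each day, 1 array a day, ordered by the middle-minus-end difference. Circles are the middle days and squares the end days, values under the dotted floor are drawn on it, and an asterisk marks the 10 called rises, in which both circles lie at least 2-fold to the right of both squares.

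Of genes that supply contraction with calcium and energy, none was called. Of 17 measured genes of excitation-contraction coupling, 7 lay higher on both middle days (41.2%, against 9.7% of all measured genes) and 1 lower (5.88%, against 6.67%), and the median difference was 0.35. Ryr1, the calcium release channel, was below the floor on day 2 and read 255, 247 and 180 later. Atp2a1, the calcium pump of fast muscle, read 67.4, 618, 646 and 519. Both were therefore within 2-fold of their mid-course signal on day 14. Atp2a2, the slow and housekeeping form of that pump, was the gene that lay lower, at 3622, 2183, 2242 and 2850. Its 4 probe sets ranged from -0.54 to 0.57 in the middle-minus-end difference. Of 28 genes of the energy shuttle and muscle glycolysis, 8 lay higher on both middle days (28.6%) and none lower. Ak1, adenylate kinase 1, was below the floor on day 2 and read 138, 126 and 63.9, just outside the threshold at 1.98-fold. Ckm, the muscle creatine kinase, was below the floor on day 2 and read 146, 142 and 96.5. Of 22 genes of fatty acid oxidation, 8 lay higher on both middle days (36.4%) and 1 lower, each by less than 2-fold.

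The acetylcholine receptor of muscle is built from alpha, beta, delta and a fetal gamma or adult epsilon subunit, and among its measured subunits the gamma subunit was called. Chrng read 107, 688, 383 and 71.8 in the order of the days, a gap of 3.57-fold. Both end days were low, day 14 the lowest. A second probe set gave a difference of 0.49 with overlapping sides, against 2.55 for the one used. The other subunits did not share the pattern. Chrna1, the alpha subunit, read 3211, 3874, 3117 and 1515, so that day 2 lay above day 5. Chrnb1, the beta subunit, was highest on day 14 at 1050. Chrnd, the delta subunit, was below the floor from day 5, after 79.3 and 99.7 on days 2 and 3. Of the 12 measured genes of the receptor and synapse list, Chrng and Erbb3 lay higher on both middle days (16.7%, against 9.7% of all measured genes). Musk, the receptor kinase of the synapse, read 59.7, 106, 102 and 113 with no return.

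Nes, the intermediate filament protein nestin of myoblasts and young fibres, was the called rise of the intermediate filament list. It was 1 of 12 measured genes (8.33%, against 0.328% of all measured genes). It read 440, 1448, 1057 and 319, a gap of 2.40-fold, and all 3 of its probe sets were called. Des, the muscle filament desmin, read 888, 1620, 1787 and 1232, higher on both middle days by less (gap 0.39 on the log2 scale), and its second probe set had the opposite sign at -0.45. Plec, the linker plectin, read 1152, 2292, 1810 and 1418. The keratin Krt18 followed another course, at 453, 484 and 48.6 on days 2, 3 and 5 and below the floor on day 14.

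The regulators of the myogenic programme were not among the calls. Myog, myogenin, read 261, 3876, 1839 and 1835. Days 5 and 14 were nearly equal, so its gap was 0.00 on the log2 scale although its middle-minus-end difference was 1.95. Mymk, the fusion protein myomaker, read 54.0, 1017, 327 and 368 and had overlapping sides. Mef2c, a MEF2 factor, came nearer, below the floor on day 2 and then 122, 119 and 64.0, with a gap of 0.90. Cdkn1c, a cell cycle inhibitor, read 133, 1683, 4667 and 1970, higher on day 14 than on day 3. Myf5 read 298, 469, 979 and 2081 and Igf2 77.4, 478, 3605 and 4220, both highest on day 14. Myod1 read 2272, 1405, 500.2 and 935, highest on day 2. Ncam1, Cdh15, Chrna1, Cdkn1a, Mki67, Pax7 and Calcr also had overlapping sides. Thus of 20 genes given whether called or not, 19 of which were measured, Myh3 and Chrng were rises and Cd34 was the dip.

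The other 14 rises stand in none of the gene lists. Hpgd, the enzyme that inactivates prostaglandin E2, had the largest gap of all genes at the floor and scaling used. It was below the floor on days 2 and 14, read 250 on day 3 and 302 on day 5, and so lay at least 5.82-fold above both ends. Its middle days were alike, and it has 1 measured probe set. Over 7 alternatives of scaling, floor and probe set choice its gap ran from 1.18 to 2.90 on the log2 scale. The gap of Mylpf was at least 2.15 under each, so Hpgd did not rank first under every alternative. Dclk1, a kinase bound to microtubules, read 113, 1122, 547 and 160, a gap of 3.43-fold. It was called on 2 of its 4 measured probe sets, whose differences ran from 0.19 to 2.55.

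Of the rest, Pkp1, the desmosome protein plakophilin 1, was below the floor on both end days and read 96.0 and 320 on days 3 and 5, a gap of at least 2.23-fold. Cd276, a surface protein of the B7 family of immune ligands, read 111, 250, 370 and 68.0, a gap of 2.26-fold. Sorcs2, a receptor of the sortilin family, read 92.8, 198, 359 and 75.4, a gap of 2.14-fold. These 3 were higher on day 5 than on day 3, the reverse of the called troponins and of Myh3, Mylpf and Myl4. St6galnac4, a sialyltransferase, read 58.4, 191, 190 and 79.1, a gap of 2.40-fold, with equal middle days.

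Close to the threshold, Myo10, an unconventional myosin of filopodia, read 87.7, 197, 219 and 96.1, a gap of 2.05-fold. Svil, the actin-binding protein supervillin, read 165, 461, 773 and 228, a gap of 2.03-fold. Arpp21, a phosphoprotein regulated by cAMP, read 43.4, 174, 445 and 87.0 and was the last gene inside the threshold at 2.00-fold. It was called on 1 of its 3 measured probe sets, whose differences ran from 0.33 to 2.18. Just outside were Gpc1, the heparan sulphate proteoglycan glypican 1, at 1.99-fold (351, 896, 1095 and 451), then Ak1 and Acta1. The remaining rises were Glipr1, Ppp1r14c (an inhibitor of protein phosphatase 1), Tmem9, Ralgps2 (an exchange factor for Ral) and Adssl1 (the muscle adenylosuccinate synthase), with gaps from 2.14-fold to 2.34-fold, lower bounds in Ppp1r14c, Tmem9 and Adssl1, and no signal above 295. The median gap of the 26 was 2.41-fold and the range 2.00-fold to 5.82-fold.

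The called rises differed in when they peaked. Day 3 was higher than day 5 in 17 of 26 and lower in 9. Day 3 exceeded day 5 by at least 2-fold in 7, namely Mylpf, Tnni1, Myh3, Dclk1, Tnnc1, Ttn and Tnnc2. The reverse held in Pkp1 and Arpp21. On the end days, day 14 was above day 2 in 18 of 26 and by at least 2-fold in 6, while day 2 was at least 2-fold above day 14 in none. Both end days were at or below the floor in 6 genes (Hpgd, Tnnc1, Pkp1, Ppp1r14c, Tmem9 and Adssl1), whose gaps are lower bounds. These 6 were measured through their middle days alone, so they could not have come out lower there. The 26 rises are also 26 of the 56 genes (0.706% of measured genes) that were at least 2-fold higher on day 3 than on day 2 and at least 2-fold lower on day 14 than on day 5. Of those 56, 15 had overlapping sides. The mirror pattern, at least 2-fold lower on day 3 than on day 2 and at least 2-fold higher on day 14 than on day 5, was met by 5 genes (0.0631%): Cd34, Nsmaf, Ccnd1, Msmo1 (an enzyme of cholesterol synthesis) and Add3 (an adducin of the membrane skeleton).

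Tnni1, Tnnt2, Pkp1 and Tmem9, 4 of the 26 rises, lie in 1 run of 6 protein-coding genes on mouse chromosome 1, in the order of the RefSeq table. Between them lie Lad1, which was under the floor on all arrays at 17.7, 36.7, 38.1 and 11.6, and Igfn1, for which no probe set was named. The run was bounded by called genes after the calls were seen, so its ends are called by construction. Courses within it were not alike, since Tnni1 and Tnnt2 were higher on day 3 and Pkp1 and Tmem9 on day 5. The gene next to Tnni1 outside the run, Phlda3, read 146, 288, 245 and 221, higher on both middle days but far from 2-fold. The next measured gene, Csrp1, was below the floor on day 2 and then read 64.1, 136 and 81.1, with overlapping sides. No other pair of called rises had 2 or fewer protein-coding genes between them.

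Cd34 was the one called dip. It read 169 on day 2, was below the floor on day 3, read 48.6 on day 5 and 526 on day 14, and both middle days lay 3.48-fold or more under both ends. In these cells in bulk, fewer cells of a type and less RNA per cell cannot be told apart. The endothelial markers Pecam1 and Cdh5 were below the floor on all 4 arrays and Kdr was above it on day 14 alone, at 59.1. Of the 23 endothelial genes on the array, however, 3, 4, 8 and 17 were above the floor on days 2, 3, 5 and 14. The summed signal of 23 endothelial markers on the array was 939 and 1469 on the middle days and 745 and 3564 on the end days, so it was highest on day 14 with Cd34 but not low on day 3 against day 2.

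Of 40 measured genes of satellite cell quiescence, 3 lay lower on both middle days (7.5%, near the 6.67% of all measured genes): Cd34, Sdc4 and Rarres2. Sdc4, the proteoglycan syndecan 4, read 609, 398, 447 and 1119, a middle-minus-end difference of -0.97. Rarres2, the secreted protein chemerin, read 46.2 on day 2, close to the floor, and 473 on day 14 and was below the floor between. Rarres2 was thus measured through its end days alone, so its direction was fixed by the floor. Calcr, the calcitonin receptor of quiescent satellite cells, was below the floor on days 2 and 3 and read 49.5 on day 5 and 615 on day 14, a late increase with no high early value. Just outside the dip threshold lay Zfp503, a zinc finger protein, at 1.96-fold (118, 60.1, 52.7 and 220), Nsmaf at 1.95-fold (127, below the floor, 65.3 and 151) and Klhl2 at 1.85-fold (97.7, 52.8, 50.3 and 117). Ccnd1, cyclin D1, read 2673, 801, 303 and 1324 and Cxcl1, a neutrophil-attracting chemokine, 2233, 531, 1160 and 1939. Both lay lower on both middle days, with middle-minus-end differences of -1.93 and -1.41, but missed the call at gaps of -0.73 and -0.74 on the log2 scale. Of 44 measured cytosolic ribosomal protein genes, 10 lay lower on both middle days (22.7%, against 6.67% of all measured genes). A further 4 lay higher (9.09%, against 9.7%), and the list median was -0.05.

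Most gene lists differed in opposite directions between the middle and end days of the 2 sample record sets. These sets come from the wording of the records: days 2 and 5 carry the tag strain/background and days 3 and 14 the tag strain. Each wording holds 1 middle and 1 end day, so day 5 over day 2 and day 3 over day 14 can be given apart and share no array. Whether the wordings mark separate experiments is not known here. Day 5 was at least 2-fold above day 2 in 1471 genes (18.5%) and below it in 848 (10.7%). Day 3 was at least 2-fold above day 14 in 896 genes (11.3%) and below it in 1270 (16%). Both ratios were at least 2-fold up in 38 genes (0.479%), which include the 26 rises by construction, and at least 2-fold down in 4 (0.0504%). Across the 7930 genes the log2 ratios had a Pearson's r of -0.67, given as a description, since genes of 1 course share their arrays and are not independent.

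The sarcomere list was high in both pairs, with medians of 0.85 for day 5 over day 2 and 0.73 for day 3 over day 14. Extracellular matrix genes (71 measured) had medians of 3.09 and -1.85 in the same pairs, so they were higher on later days in both. Satellite cell quiescence genes had 1.51 and -2.36. S phase genes (50 measured) had -1.52 and 1.71 and genes of G2 and mitosis (63 measured) -1.61 and 1.71, the mirror image. The middle-minus-end medians of these 4 lists were 0.40, -0.12, 0.09 and 0.06, and no gene of them but Cd34 was called. None of the 4 kept its sign when single arrays were left out. The matrix median was -0.89 without day 2 and -0.35 without day 5, and the quiescence median 0.38 without day 3 and 1.13 without day 14. Without day 3 and without day 14 the S phase median was -0.40 and -0.97 and that of G2 and mitosis -0.58 and -0.93. Of 39 lists with at least 3 measured genes, the pair medians had opposite signs in 31 and were both above 0 in 5: the sarcomere, excitation-contraction coupling (0.38 and 0.21), energy shuttle (0.38 and 0.50), fatty acid oxidation (0.34 and 0.09) and myogenic regulator (1.14 and 0.08) lists. Of the 39, the sarcomere list had the highest middle-minus-end median. Mural and smooth muscle markers came next at 0.62, but their pairs stood at 2.30 and -1.17, and the median was -0.58 without day 2 and -0.24 without day 5. The summed mural signal was 6476 and 14218 on the middle days and 1992 and 13157 on the end days, so those sides overlapped.

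**Figure D3:**
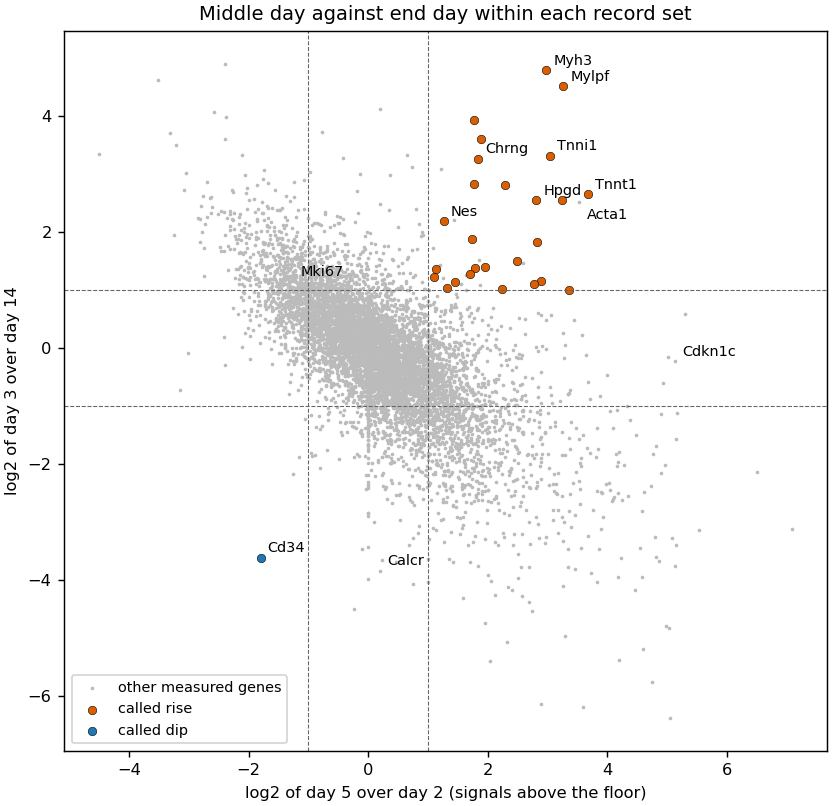
Log2 ratio of day 5 over day 2 (horizontal) against that of day 3 over day 14 (vertical) for the 7930 measured genes, with 1 array a day and signals set to the floor. Dashed lines mark 2-fold, the called rises lie in the upper right corner and Cd34 in the lower left, and the cloud of other genes slopes downward with a Pearson's r of -0.67.

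**Figure D4:**
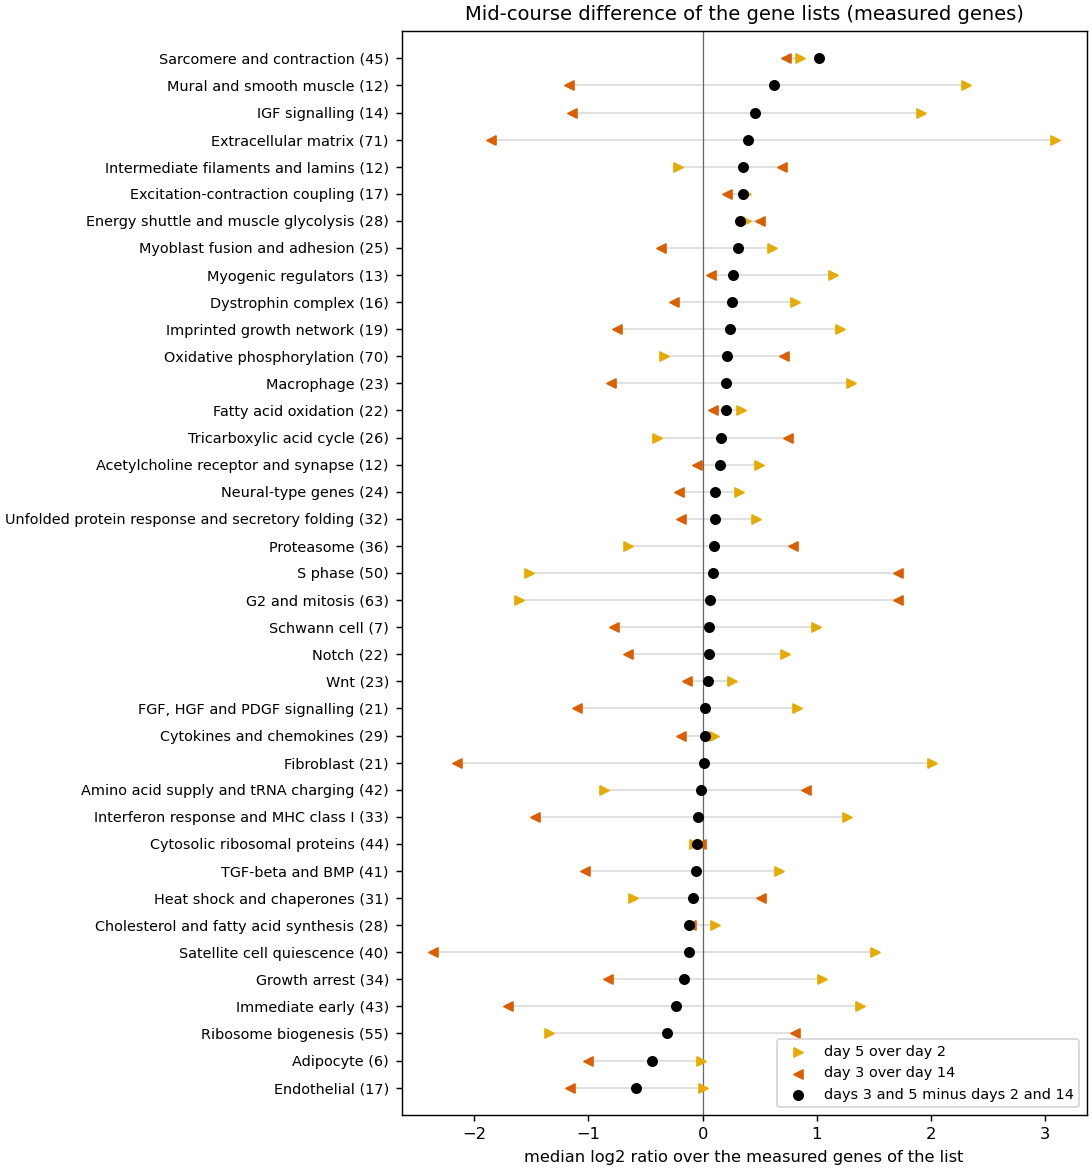
Median log2 ratio over the measured genes of each of 39 gene lists, their number in parentheses, for day 5 over day 2, day 3 over day 14, and the mean of days 3 and 5 minus the mean of days 2 and 14. The sarcomere list is highest, at 1.02, with both pairs above 0, while matrix, quiescence and cell cycle lists have pairs on opposite sides of 0.

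The calls depended on the floor, the scaling and the probe set that stood for a gene. Hpgd, Mylpf, Tnnt2, Tnni1, Myh3, Tnnt1, Ttn, Tnnc2 and Nes, 9 of the 26, were called under all 7 alternatives of scaling, floor and probe set choice, and 7 of these 9 are sarcomere genes. A further 7 rises lost the call under 1 alternative, Chrng, Dclk1, Myl4 and Pdlim7 under the median over probe sets, Tnnc1 and Glipr1 under the higher floor, and Ralgps2 with the values as deposited. The other 10, among them Pkp1, Tmem9, Cd276, Sorcs2, Svil, Arpp21 and Myo10, lost it under at least 2. Arpp21 kept it under 2 of the 7 and Myo10 under 1. Cd34 lost its call under the higher floor. Between probe sets of 1 gene the middle-minus-end difference had an SD of 0.24 over 1907 genes, which leaves out the spread between animals.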

How the data were processed

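Myogenic cells from 4 days after injury were measured on 1 array each. RNA extraction used a Qiagen RNeasy kit and labelling an assay for small samples, which amplifies RNA, per the labels' protocols. Per the submitters' processing notes, the deposited values are MAS5 signal intensities on a linear scale, with settings and scaling target not given in the sources used. The lowest deposited value was 0 and the highest 15686. Precision is limited by the number of arrays.

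Arrays were scaled to a common 2% trimmed mean (factors 0.997, 1.13, 0.917 and 0.976 on days 2, 3, 5 and 14), floored at 43.0 and log2 transformed. Of 22690 probe sets, 20393 had 1 symbol in the platform annotation, 691 had several and 1606 were not named. Of the probe sets with 1 symbol, 20364 had a gene ID found in RefSeq (GRCm38.p6). A gene was represented by its brightest probe set, by mean log2 signal (4958 genes had several). Levels were compared between arrays and not between genes. There is no test, as each day is 1 array. Named genes were the 12 called genes with the largest gap whose probe sets shared a sign, up to 4 called members of each list, 20 given genes, and the 3 genes on each side of the threshold; H19, 1 of the 20, was not measured here. Genes named beyond these were chosen after their values were seen. The members and the 42 lists (33 of processes, 9 of cell types) were chosen with earlier results of these data known. Alternatives covered scaling, floor, fold, probe set choice, leaving out an array, and limma 3.58.1 in R 4.3.3. The rest was done in Python 3.11.15 with numpy 2.4.6 and pandas 2.3.3. The call rule was run on simulated arrays, with changes planted in genes well above the floor and no trend over the days. That run cannot say how the rule does on genes near the floor or with such a trend.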

Additional observations from a re-analysis of the deposited data

How the results depend on the processing

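The count of 26 rises and 1 dip depended on the settings. Rises numbered 70 with the floor at the 25th percentile and 16 at the 65th, 84 at 1.5-fold, 10 at 3-fold, and 110 where means differed by 2-fold without overlap. Dips numbered 12 and 0 under those floors, 22 at 1.5-fold, 25 by the mean rule, 2 with the values as deposited, 4 after quantile normalization, and 2 with each probe set on its own. Without 1 array, rises ranged from 89 (without day 5) to 363 (without day 14) and dips from 15 (without day 3) to 335 (without day 2), since fewer conditions must be met. Rises were 96.3% of the calls, and 85.7% after quantile normalization and 85.4% with the lower floor, 79.2% at 1.5-fold, 81.5% by the mean rule and 28.1% without day 2, where rises numbered 131. Of the 45 measured genes of the sarcomere list, 16 were rises at 1.5-fold (35.6%, against 1.06% of all measured genes). By the mean rule 22 were (48.9%, against 1.39%). With an array left out, rises made up 1.14% to 4.79% of all measured genes. The sarcomere list then had 12 to 18 rises (26.7% to 40.9% of its 40 to 45 measured genes). Its median of 1.02 was 1.32 with no floor and 16 added, 0.62 with each probe set on its own, and between 0.57 (without day 2) and 1.32 (without day 5) when an array was left out. Taking the days of a side as if they were replicates, limma called 0 rises and 0 dips at an adjusted p under 0.05, with or without the record wording as a block. At an unadjusted p under 0.05 limma gave 60 rises (0.757% of the 7930 measured genes) and 14 dips (0.177%). With the block it gave 19 (0.24%) and 1 (0.0126%). The middle-minus-end difference kept its sign in the 17 called named genes, which groups that do not overlap fix when an array is left out. Of 21 named genes that were not called, 8 changed sign without 1 array (Igf2, Mki67, Ncam1, Krt18, Myf5, Pax7, Cdkn1a and Calcr) and 1, Pax7, under other floors. Of 39 list medians, 34 changed sign without 1 array and 9 under another setting. The sarcomere, excitation-contraction coupling, energy shuttle, fatty acid oxidation and myogenic regulator medians did not when an array was left out. The labels carry no replicate numbers to use as a block.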

Other observations

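Some genes with functions near those of called rises were looked up after the calls were seen, and are given as values with no test. Hpgd had the largest gap at the floor and scaling used. Of 11 measured genes of prostanoid enzymes, transport and receptors, 3 lay higher on both middle days and 1 lower, against 9.7% and 6.67% of all measured genes. The family was picked for Hpgd, which is 1 of the 3. Ptgis, prostacyclin synthase, read 129, 479, 245 and 125 on days 2, 3, 5 and 14, with nearly equal end days and a gap of 0.92 on the log2 scale. Ptgs2, the inducible cyclooxygenase, read 67.6, 62.7, 296 and 56.4, so that day 5 stood alone. Slco2a1, the prostaglandin transporter, read 113, 48.8, 43.8 and 50.7, highest on day 2. Ptger4, a receptor for prostaglandin E2, read 113, 113, 315 and 758, highest on day 14.

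The desmosome genes were picked for Pkp1. Of 5 measured, 2 lay higher on both middle days, Pkp1 as a called rise and Pkp2, and 1 lower, against 9.7% and 6.67% of all measured genes. Pkp2, plakophilin 2, read 63.2, 164 and 117 on days 2, 3 and 5 and was below the floor on day 14 (gap 0.89 on the log2 scale). Jup, plakoglobin, was below the floor on day 2 and read 52.9, 102 and 119 afterwards, with no return. Pkp4 lay lower on both middle days, at 418, 201, 251 and 297.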
